A study of Mus musculus with 12 samples.

Results

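Described here are 28 genes of cholesterol synthesis and of its control by the SREBP transcription factors, taken by name: the enzymes of the mevalonate and sterol pathway, a sterol carrier, the SREBP factors with the proteins that hold or escort them, and genes of sterol transport and efflux. Each gene was read from 1 probe set, the one annotated to that gene alone with the highest mean over the arrays. Of the 28 genes, 27 were measured among 19938 genes in all. No probe set was annotated to Acat2, a cytosolic thiolase, alone, and Acat2 is not analysed here. The cells were NIH3T3, an established line of mouse fibroblasts, grown in medium with foetal bovine serum.

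Expression was measured on 12 Affymetrix arrays in 4 groups of 3, which the series' design text describes as biological replicates. Cells of the first group received sirUBF oligo 1 and cells of the second sirUBF oligo 2, which are independent siRNAs against UBF. Cells of the third group received sirEGFP, an siRNA named for a gene that mouse cells do not carry, and Mock cells received the transfection reagent Dharmafect 2 without siRNA. All siRNAs were used at 40 nM, all RNA was taken after 48 h, and 100 ng of RNA gave 2.5 ug of labelled cDNA per array. The comparisons ask what silencing of UBF does to the transcripts of this pathway, with an unrelated siRNA and the reagent alone as controls. All groups are pools of cultured cells, so fewer cells carrying a transcript and less transcript per cell cannot be told apart.

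Cells build cholesterol from acetyl-CoA by way of mevalonate, the isoprenoid diphosphates, squalene and lanosterol. When membranes are short of sterol, Scap escorts the SREBP precursors, encoded by Srebf1 and Srebf2, from the endoplasmic reticulum to the Golgi, where proteases release the part that enters the nucleus and switches on most genes of the pathway. Insig1 and Insig2 retain Scap in the endoplasmic reticulum when sterol is plentiful. UBF, the product of Ubtf, is a nucleolar protein that works with RNA polymerase I on the ribosomal RNA genes.

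Ubtf itself stood at 7.998, 7.74 and 7.64 on the log2 scale with oligo 1, 7.90, 7.83 and 7.49 with oligo 2, 8.68, 8.31 and 8.04 with sirEGFP, and 8.54, 8.63 and 8.41 in Mock. All 6 arrays of the UBF siRNAs lay below all 6 control arrays, and Ubtf fell by 37.2% (limma adjusted p = 0.0041). Set against sirEGFP alone, its change was -0.55 for oligo 1 and -0.61 for oligo 2 (adjusted p = 0.107 and 0.0771), and neither passed the test.

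Of 11 fibroblast markers, Vim, S100a4 and Fn1 were high (means of 12.8, 12.5 and 11.2) and Fap and Tcf21 low (3.16 and 4.99). The array means of the adipocyte, macrophage, epithelium and skeletal muscle markers all lay between 4.58 and 5.53. Single markers moved: the adipocyte marker Fabp4 rose by 1.65 with oligo 2 against sirEGFP (limma adjusted p = 0.000143), with Adipoq and Lep at means of 3.57 and 3.82, and the macrophage marker Csf1r rose by 0.83 with oligo 1 (adjusted p = 0.00874). Their part in the results below was not tested. The first axis of the spread within groups held 41.5% of that spread and set 3 arrays apart, oligo 1 array 1 (score 1.67), oligo 1 array 2 (-1.77) and sirEGFP array 1 (1.46), with the other arrays between -1.01 and 0.91. Results are therefore also given without these 3 arrays, which leaves oligo 1 with 1 array that is assumed to vary like the other groups. The 9 measured markers of proliferating cells averaged -0.38, -0.48 and -0.46 relative to their 12-array mean with oligo 1, 0.09, 0.14 and 0.08 with oligo 2, 0.12, 0.17 and 0.09 with sirEGFP, and 0.13, 0.23 and 0.27 in Mock. They were thus low on the oligo 1 arrays and not on the oligo 2 arrays, and their part in the oligo 1 results was not tested.

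Most enzymes of cholesterol synthesis fell in the average of both UBF siRNAs against that of both controls, and Idi1 had the largest change. With both oligos against both control groups, 13 of the 27 measured genes fell and 0 rose, where 1.87% of all genes fell and 3.05% rose. The median of the 27 genes was -0.38 on the log2 scale and that of all genes 0.02. Of the 17 measured enzymes 11 fell, with a median of -0.42. The control groups were not alike for these enzymes: all 17 stood below 0 for sirEGFP against Mock, with a median of -0.18 (0.02 for all genes, 45.3% of which were below 0) and 0 calls. Against sirEGFP alone, the mean of both oligos called 2 of the 17, with a median of -0.35. For single siRNAs against sirEGFP, 5 of the 17 fell with oligo 1 and 2 with oligo 2, beside 1.43% and 0.742% of all genes. The 11 called with both controls were 4 of 6 in the mevalonate segment, 2 of 3 from squalene to lanosterol and 5 of 8 from lanosterol to cholesterol, while 1 of the 5 genes of SREBP control fell, as did the sterol carrier Stard4. None of the 4 genes of sterol transport and efflux passed the test. In 5 genes, Idi1, Sqle, Cyp51, Hsd17b7 and Stard4, every array of the UBF siRNAs lay below every control array, an arrangement found in 0.692% of all genes. None of the 27 had every array of the UBF siRNAs above every control, as 1.43% of all genes did. Leaving out 1 array at a time gave 8 to 13 called genes, with 591 to 1399 called among all genes. Leaving out the 3 arrays that stand apart leaves 1 oligo 1 array. In that setting Hmgcs1, Fdps, Lss, Cyp51, Nsdhl, Ebp and Insig1 lost their call, and Scap is described below. No share of all genes is set beside these losses. In a fit over all probe sets, which adjusts over more features, 8 of the 13 kept their call and Fdps, Lss, Nsdhl, Ebp and Insig1 did not (0.0887 to 0.113).

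Single siRNAs gave fewer calls. With oligo 1 against sirEGFP 6 genes fell (1.43% of all genes fell) and 0 rose (1.04%), and with oligo 2 against sirEGFP 3 fell (0.742%) and 0 rose (1.52%). For the mean of both oligos against sirEGFP 3 fell (0.722%) and 0 rose (1.21%). Against Mock, 11 fell with oligo 1 (1.4%) and 0 rose (1.35%), and with oligo 2, 7 fell (1.32%) and 1 rose (2.93%). With the 3 arrays that stand apart left out, oligo 1 has 1 array, so counts of calls in that setting are not read here. Leaving out 1 array at a time gave 2 to 5 with oligo 1 and 0 to 3 with oligo 2 against sirEGFP, and 3 to 11 and 2 to 10 against Mock. Same-numbered arrays of oligo 2 and sirEGFP varied together, and with the replicate number as a block 4 members fell with oligo 2 against sirEGFP (1.14% of all genes) and 1 rose (2.73%), the additions being Msmo1 (-0.51, adjusted p = 0.0199) and Scap (0.63, 0.0383). The fit over all probe sets ended the calls of Fdft1, Sqle and Cyp51 with oligo 1 against sirEGFP (0.0793 to 0.113), of Idi1 and Hsd17b7 with oligo 2 (0.0622 to 0.11) and of Hsd17b7 in the mean (0.101). Against Mock it ended those of Fdps, Lss, Msmo1 and Nsdhl with oligo 1 (0.106 to 0.141) and of Sqle, Msmo1, Hsd17b7, Ebp, Insig1 and Npc1 with oligo 2 (0.0588 to 0.112). Fitting only the groups compared left Idi1 alone called with oligo 1 against sirEGFP (0.0557 to 0.152 for the other 5) and ended the calls of Fdft1, Cyp51, Msmo1, Nsdhl and Stard4 with oligo 1 (0.0608 to 0.107) and of Sqle with oligo 2 (0.0517) against Mock. These comparisons share their control arrays and are not independent of each other. Between the control groups, sirEGFP against Mock gave 0 called genes of 19938 by limma, a share of 0%, with 1247 genes and 5 of the 27 at an unadjusted p under 0.05.

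**Figure D1:**
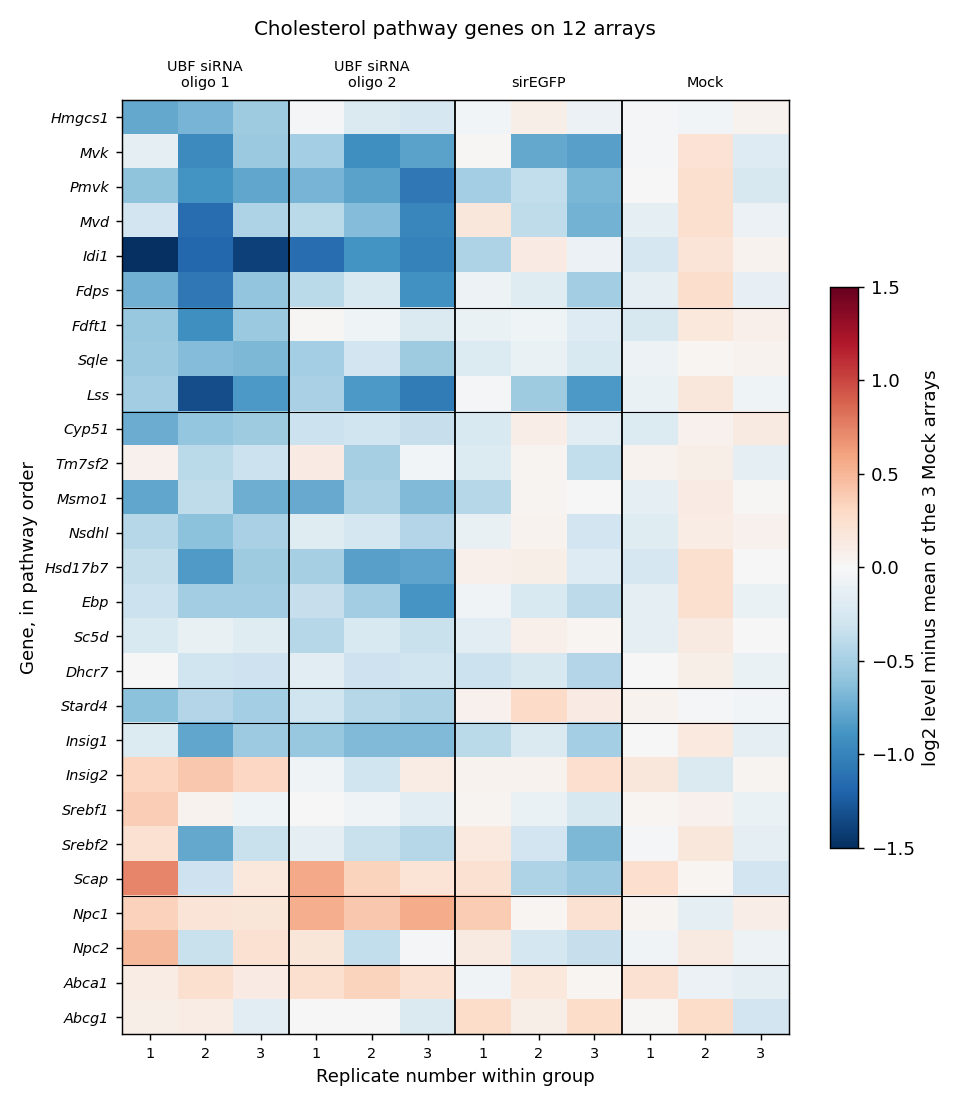
Log2 level of each of the 27 measured genes on each of the 12 arrays, as the difference from the gene's mean over the 3 Mock arrays. Rows follow the pathway, columns run from oligo 1 and oligo 2 to sirEGFP and Mock, and the colour scale ends at 1.5 in either direction. In group means all 17 enzymes are below Mock with oligo 1, oligo 2 and also sirEGFP (medians of -0.63, -0.51 and -0.18). The rows of Srebf1, Srebf2, Npc2 and Abcg1 do not separate the UBF siRNAs from the controls.

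The mean of the 17 enzymes on each array shows the same order. Relative to the 12-array mean it was -0.18, -0.41 and -0.26 with oligo 1, -0.06, -0.16 and -0.29 with oligo 2, 0.18, 0.20 and -0.02 with sirEGFP, and 0.22, 0.48 and 0.30 in Mock. Every array of the UBF siRNAs was below every control array, and sirEGFP array 3 was the lowest control. The 5 genes of SREBP control averaged 0.38, -0.19 and -0.01 with oligo 1, 0.05, -0.12 and -0.10 with oligo 2, 0.10, -0.12 and -0.25 with sirEGFP, and 0.17, 0.13 and -0.04 in Mock, and these groups overlapped.

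**Figure D2:**
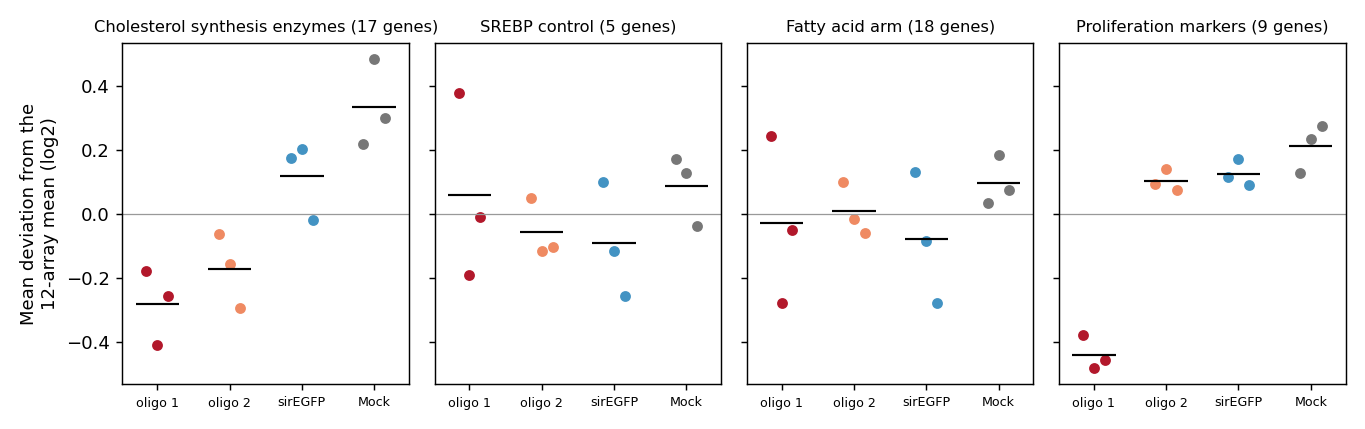
Mean log2 difference from the 12-array mean for the sterol enzymes, the genes of SREBP control, the fatty acid arm of the SREBP targets and the proliferation markers, with a point per array, a line at the group mean and the groups ordered oligo 1, oligo 2, sirEGFP and Mock. The enzymes of cholesterol synthesis lie between -0.41 and -0.06 with the UBF siRNAs and between -0.02 and 0.48 in the controls; the proliferation markers are low on the 3 oligo 1 arrays only.

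SREBP binds sterol regulatory elements in promoters, usually beside sites of the factor NF-Y, which recognises CCAAT. The RefSeq promoter table (GRCm38.p6) holds 22 of the 28 genes, in 30 windows. CCAAT stands on either strand within 250 bases upstream of the start in 20 of these 30 windows, against 33.8% of all 32851 windows. Counted by gene, 14 of the 15 enzymes with an entry hold it in at least 1 window. No share by gene was computed over all genes. GGGCGG, the core of the Sp1 site, stands in 24 of the 30 windows and 32.7% of all, and CACGTG, an E-box, in 6 of the 30 and 6.02% of all. TCACNCCAC, a form of the sterol regulatory element, stands in the Hmgcs1 window alone among the 30 and in 1.05% of all windows, and its shorter form TCACNCCA, which it contains, in those of Hmgcs1, Msmo1 and Srebf2 and in 3.67% of all. These are matches of letters, not measured binding. The 200 bases upstream of the start are shown for 5 enzymes whose arrays are given below, 5′ to 3′ on the gene's strand, with CCAAT (or ATTGG, its complement) and TCACNCCAC in capitals. They lie at chr13:119690151-119690350 (plus strand) for Hmgcs1, chr13:8885406-8885605 (plus) for Idi1, chr5:4104698-4104897 (minus) for Cyp51, chr8:64733579-64733778 (minus) for Msmo1 and chr1:169969206-169969405 (minus) for Hsd17b7.
Hmgcs1: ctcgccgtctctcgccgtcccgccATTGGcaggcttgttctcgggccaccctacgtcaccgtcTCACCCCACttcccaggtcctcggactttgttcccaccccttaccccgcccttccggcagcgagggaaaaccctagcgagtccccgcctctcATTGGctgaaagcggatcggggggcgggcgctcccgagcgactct
Idi1: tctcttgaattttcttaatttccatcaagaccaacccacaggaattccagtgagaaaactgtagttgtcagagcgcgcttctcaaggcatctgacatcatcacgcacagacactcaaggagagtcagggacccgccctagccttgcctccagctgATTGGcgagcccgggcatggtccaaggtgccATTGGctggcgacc
Cyp51: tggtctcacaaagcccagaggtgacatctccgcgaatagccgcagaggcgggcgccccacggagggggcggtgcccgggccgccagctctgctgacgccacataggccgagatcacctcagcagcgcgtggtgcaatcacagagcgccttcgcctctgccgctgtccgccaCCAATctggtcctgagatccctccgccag
Msmo1: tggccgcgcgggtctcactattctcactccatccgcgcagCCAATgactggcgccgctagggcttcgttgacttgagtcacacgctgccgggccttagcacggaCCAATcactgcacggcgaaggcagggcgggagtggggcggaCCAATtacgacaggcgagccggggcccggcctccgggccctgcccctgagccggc
Hsd17b7: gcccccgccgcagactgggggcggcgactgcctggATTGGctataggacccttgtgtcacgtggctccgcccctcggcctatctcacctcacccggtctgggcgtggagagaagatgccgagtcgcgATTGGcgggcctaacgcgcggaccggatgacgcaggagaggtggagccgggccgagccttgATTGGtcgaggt
Within the printed bases, Msmo1 and Hsd17b7 hold 3 copies of CCAAT or its complement each, Hmgcs1 and Idi1 2 each and Cyp51 1. The TCACCCCAC of Hmgcs1 begins 137 bases upstream of the start.

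The mevalonate segment turns acetoacetyl-CoA into the isoprenoid diphosphates, and Idi1 carried the largest change of all 27 genes in every comparison of a UBF siRNA with a control. Idi1 encodes isopentenyl diphosphate isomerase, which interconverts the C5 building blocks. It stood at 8.79, 9.32 and 9.10 with oligo 1, 9.35, 9.61 and 9.48 with oligo 2, 10.03, 10.62 and 10.41 with sirEGFP, and 10.25, 10.69 and 10.55 in Mock. The highest array of the UBF siRNAs was below the lowest control array. Against sirEGFP, Idi1 fell by 58.9% with oligo 1 (-1.28 ± 0.17 on the log2 scale, SE, limma adjusted p = 0.00155) and fell by 45.5% with oligo 2 (-0.88 ± 0.17, adjusted p = 0.0136). It fell by 55.0% with both oligos against both controls (-1.15 ± 0.12, adjusted p = 0.000113). A second probe set of Idi1 gave -1.27 with oligo 1 and -0.91 with oligo 2 in a fit over all probe sets (adjusted p = 0.0136 and 0.0468), where the probe set used here kept its oligo 1 call (0.0136) and lost its oligo 2 call (0.0622). In the fit over genes, the call for oligo 2 was lost without sirEGFP 2, sirEGFP 3, oligo 2 array 1 or oligo 2 array 3 (adjusted p = 0.0567 to 0.0852) and kept without the 3 arrays that stand apart (0.00177), and the call for oligo 1 was kept in each of these cases (at most 0.0134).

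Hmgcs1, which encodes the cytosolic HMG-CoA synthase at the head of the pathway, separated the siRNAs. It stood at 9.56, 9.63 and 9.78 with oligo 1, 10.31, 10.10 and 10.07 with oligo 2, 10.27, 10.41 and 10.23 with sirEGFP, and 10.31, 10.28 and 10.38 in Mock. The oligo 1 arrays were below all others, while 1 oligo 2 array lay among the controls and the other two just below them. Hmgcs1 fell with oligo 1 against sirEGFP (-0.65 ± 0.11, limma adjusted p = 0.00708) and against Mock (-0.67 ± 0.11, adjusted p = 0.00521), and was -0.15 ± 0.11 with oligo 2 against sirEGFP (adjusted p = 0.68). With both oligos against both controls the change was -0.41 ± 0.08 (adjusted p = 0.0091). Without sirEGFP 2 the oligo 1 call against sirEGFP was lost (adjusted p = 0.0513), as it was without the 3 arrays that stand apart (-0.54, adjusted p = 0.159), where the call with both oligos against both controls was lost too (0.0809).

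Pmvk encodes phosphomevalonate kinase. It stood at 6.58, 6.28 and 6.41 with oligo 1, 6.48, 6.38 and 6.12 with oligo 2, 6.67, 6.81 and 6.50 with sirEGFP, and 7.18, 7.42 and 6.95 in Mock. Mock was the highest group, and of the sirEGFP arrays only array 3 was below the highest array of the UBF siRNAs. Pmvk fell against Mock with oligo 1 (-0.76 ± 0.15, limma adjusted p = 0.0111) and oligo 2 (-0.86 ± 0.15, adjusted p = 0.00457), and was -0.24 and -0.33 against sirEGFP (adjusted p = 0.565 and 0.349). It fell by 31.6% with both oligos against both controls (adjusted p = 0.00717), while sirEGFP itself stood at -0.52 against Mock (adjusted p = 0.668). The oligo 1 call against Mock was lost without Mock 2 or oligo 1 array 3 (0.0536 to 0.0617) and without the 3 arrays that stand apart (0.133), while the oligo 2 call (0.00487) and that of both oligos (0.0361) were kept without these 3.

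Fdps encodes farnesyl diphosphate synthase, from which the branches to squalene, dolichol and prenylated proteins start. It stood at 9.32, 8.97 and 9.45 with oligo 1, 9.64, 9.81 and 9.13 with oligo 2, 9.97, 9.86 and 9.52 with sirEGFP, and 9.90, 10.30 and 9.92 in Mock. The oligo 1 arrays were below all control arrays and 2 of the 3 oligo 2 arrays were not. Fdps fell with both oligos against both controls (-0.53 ± 0.13, limma adjusted p = 0.0338) and with oligo 1 against Mock (-0.80 ± 0.19, adjusted p = 0.0345). The first call was lost without 8 of the 12 arrays taken singly (0.0513 to 0.0911) and kept without sirEGFP 3, oligo 1 arrays 1 or 3, or oligo 2 array 2. The second was lost without any Mock array, any oligo 1 array or sirEGFP 2 (0.0511 to 0.16), and neither held without the 3 arrays that stand apart (0.234 and 0.441).

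Mvk, which encodes mevalonate kinase, and Mvd, which encodes the decarboxylase that yields isopentenyl diphosphate, did not pass any test in the fit over genes. Mvk ranged from 6.61 to 7.43 on the arrays of the UBF siRNAs and from 6.75 to 7.78 on the controls, and Mvd from 5.54 to 6.41 and from 5.99 to 6.93. For both oligos against both controls Mvk was at -0.38 (adjusted p = 0.233) and Mvd at -0.50 (adjusted p = 0.117). With oligo 2 against Mock, Mvk was at -0.75 (limma adjusted p = 0.0853), and it passed there with the replicate number as a block. Both spread widely within groups, with a pooled SD of 0.34 for Mvk and 0.36 for Mvd, against 0.10 for Hmgcs1.

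**Figure D3:**
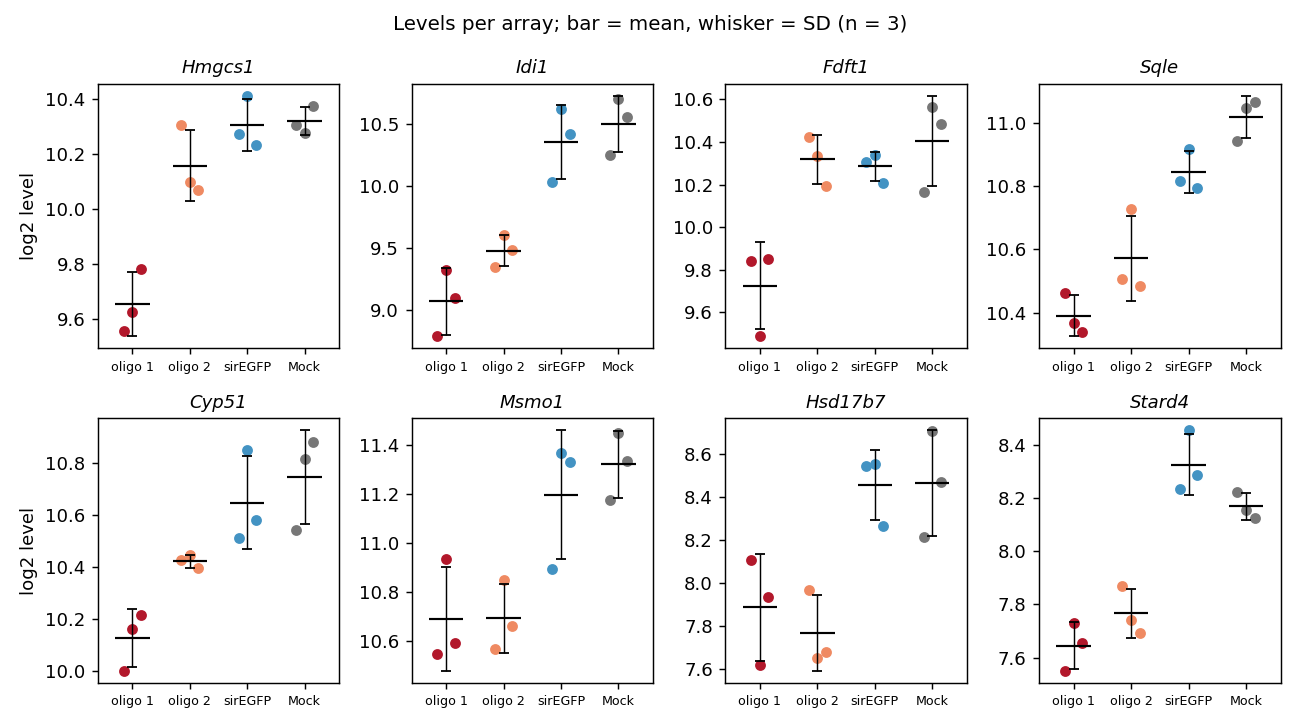
Log2 level of Hmgcs1, Idi1, Fdft1, Sqle, Cyp51, Msmo1, Hsd17b7 and Stard4 on each array, a panel per gene, with a point per array, a bar at the group mean and whiskers of 1 SD (n = 3); groups run from oligo 1 and oligo 2 to sirEGFP and Mock. Idi1, Sqle, Cyp51, Hsd17b7 and Stard4 are lower on all 6 arrays of the UBF siRNAs than on all 6 control arrays, while Hmgcs1 and Fdft1 are lowest on the 3 oligo 1 arrays.

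From farnesyl diphosphate the pathway commits to sterols through Fdft1, Sqle and Lss. Sqle encodes squalene epoxidase, a rate-limiting step of this stretch. It stood at 10.46, 10.37 and 10.34 with oligo 1, 10.51, 10.73 and 10.48 with oligo 2, 10.82, 10.92 and 10.79 with sirEGFP, and 10.94, 11.05 and 11.07 in Mock. The groups followed that order with no overlap between the UBF siRNAs and the controls, and the pooled SD within groups, 0.09, was the smallest of the 27 genes. Sqle fell by 26.8% with both oligos against both controls (-0.45 ± 0.08, limma adjusted p = 0.00383) and kept that call without each array in turn (at most 0.0151) and without the 3 arrays that stand apart (0.0195). Against sirEGFP it fell with oligo 1 (-0.45 ± 0.11, adjusted p = 0.0418) and was -0.27 with oligo 2 (adjusted p = 0.287), and against Mock it fell with oligo 1 (-0.63, adjusted p = 0.00572) and oligo 2 (-0.45, adjusted p = 0.0325). The oligo 1 call against sirEGFP was lost without any array but oligo 2 array 2 (0.054 to 0.188) and without the 3 arrays that stand apart (0.181). Against Mock, the oligo 1 call was lost without those 3 arrays (0.0837) and the oligo 2 call without 6 single arrays, the 3 Mock arrays, oligo 1 array 3 and oligo 2 arrays 1 and 3 (0.05 to 0.142).

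Fdft1 encodes squalene synthase, the first enzyme committed to sterols. It stood at 9.84, 9.49 and 9.85 with oligo 1, 10.42, 10.34 and 10.19 with oligo 2, 10.31, 10.34 and 10.21 with sirEGFP, and 10.16, 10.57 and 10.49 in Mock. The oligo 1 arrays were below all others, and the oligo 2 arrays lay among the controls. Fdft1 fell with oligo 1 against sirEGFP (-0.56 ± 0.14, limma adjusted p = 0.0433) and against Mock (-0.68 ± 0.14, adjusted p = 0.0137), and was 0.03 with oligo 2 against sirEGFP (adjusted p = 0.962). Its second probe set gave -0.83 with oligo 1 and -0.19 with oligo 2 against sirEGFP in the fit over all probe sets (adjusted p = 0.0841 and 0.816), where the probe set used here also lost its oligo 1 call against sirEGFP (0.113). The call against sirEGFP was lost without any array but Mock 1 and Mock 2 (0.056 to 0.178), the call against Mock without Mock 2 or Mock 3 (0.061 to 0.0732), and both without the 3 arrays that stand apart (0.359 and 0.253).

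Lss encodes lanosterol synthase, which closes the sterol rings. It stood at 7.22, 6.42 and 6.89 with oligo 1, 7.26, 6.89 and 6.70 with oligo 2, 7.72, 7.22 and 6.89 with sirEGFP, and 7.65, 7.91 and 7.69 in Mock. Mock was above every array of the UBF siRNAs, while sirEGFP overlapped them. Between the controls, sirEGFP stood at -0.47 against Mock (limma adjusted p = 0.794). Lss fell with both oligos against both controls (-0.62 ± 0.16, limma adjusted p = 0.0338) and with oligo 1 against Mock (-0.91 ± 0.22, adjusted p = 0.0395), with -0.80 for oligo 2 against Mock (adjusted p = 0.0568). The first call was kept only without sirEGFP 3, oligo 1 arrays 1 or 2, or oligo 2 array 1 among single arrays (otherwise 0.0575 to 0.0952), and the second was lost without any Mock array, sirEGFP 2, oligo 1 arrays 2 or 3, or oligo 2 array 2 (0.0589 to 0.157). Neither held without the 3 arrays that stand apart (0.0697 and 0.0991).

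The last stretch turns lanosterol into cholesterol, and 5 of its 8 enzymes fell with both oligos against both controls. Cyp51 encodes the lanosterol demethylase that opens it. It stood at 10.00, 10.16 and 10.22 with oligo 1, 10.43, 10.45 and 10.40 with oligo 2, 10.51, 10.85 and 10.58 with sirEGFP, and 10.54, 10.82 and 10.88 in Mock. The 3 oligo 1 arrays were the lowest, the oligo 2 arrays came next, and the controls lay above both. Cyp51 fell with both oligos against both controls (-0.42 ± 0.09, limma adjusted p = 0.0138), with oligo 1 against sirEGFP (-0.52 ± 0.13, adjusted p = 0.0429) and with oligo 1 against Mock (-0.62 ± 0.13, adjusted p = 0.0149), and was -0.22 with oligo 2 against sirEGFP (adjusted p = 0.519). The call against sirEGFP was kept only without Mock 1, Mock 3, sirEGFP 1 or oligo 1 array 2 among single arrays (otherwise 0.0561 to 0.234), and that against Mock was lost without Mock 2, Mock 3 or oligo 1 array 1 (0.057 to 0.0701). None of the calls held without the 3 arrays that stand apart (0.0596 with both oligos against both controls, 0.246 against sirEGFP and 0.258 against Mock).

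Msmo1 and Nsdhl encode enzymes that remove the methyl groups at carbon 4 of the sterol, together with Hsd17b7. Msmo1 stood at 10.55, 10.94 and 10.59 with oligo 1, 10.57, 10.85 and 10.66 with oligo 2, 10.90, 11.37 and 11.33 with sirEGFP, and 11.18, 11.45 and 11.34 in Mock. Only sirEGFP array 1 among the controls reached down to the UBF siRNAs, and the siRNAs had nearly the same mean. Msmo1 fell with both oligos against both controls (-0.57 ± 0.11, limma adjusted p = 0.00666, and -0.69, adjusted p = 0.0044, without the 3 arrays that stand apart) and was -0.51 against sirEGFP with oligo 1 (adjusted p = 0.109) and -0.51 with oligo 2 (0.111). With oligo 2 against sirEGFP it passed without the 3 arrays (-0.66, adjusted p = 0.0136). Against Mock it fell by 0.63 on the log2 scale with each siRNA (adjusted p = 0.0372 for oligo 1 and 0.0301 for oligo 2), and each call was lost without 6 single arrays. For oligo 1 these were the 3 Mock arrays, oligo 1 arrays 1 and 3 and oligo 2 array 3 (0.0581 to 0.164), and for oligo 2 the 3 Mock and the 3 oligo 2 arrays (0.0507 to 0.131). Without the 3 arrays that stand apart the oligo 1 call against Mock was lost (0.0756) and the oligo 2 call kept (0.00846).

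Hsd17b7 encodes the 3-ketosteroid reductase of this step. It stood at 8.11, 7.62 and 7.94 with oligo 1, 7.97, 7.65 and 7.68 with oligo 2, 8.54, 8.56 and 8.27 with sirEGFP, and 8.22, 8.71 and 8.47 in Mock. The highest array of the UBF siRNAs, 8.11, was below the lowest control, 8.22. Hsd17b7 fell by 35.5% with both oligos against both controls (-0.63 ± 0.11, limma adjusted p = 0.00459), with oligo 2 against sirEGFP (-0.69 ± 0.16, adjusted p = 0.0351), with oligo 2 against Mock (-0.70 ± 0.16, adjusted p = 0.0231) and for the mean of both oligos against sirEGFP (-0.63 ± 0.14, adjusted p = 0.0319), and was -0.57 with oligo 1 against sirEGFP (adjusted p = 0.0832). The oligo 2 call against sirEGFP was lost without Mock 3, any sirEGFP array, oligo 1 array 3 or oligo 2 arrays 2 or 3 (0.0525 to 0.153), that against Mock without Mock 2, Mock 3 or oligo 2 arrays 2 or 3 (0.057 to 0.117), and that of the mean without any sirEGFP array, oligo 1 array 3 or oligo 2 arrays 2 or 3 (0.0608 to 0.198). Without the 3 arrays that stand apart the mean was lost (0.0801), while both oligo 2 calls (0.0392 and 0.0138) and that of both oligos against both controls (0.0247) were kept.

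Nsdhl stood at 10.54, 10.36 and 10.49 with oligo 1, 10.79, 10.71 and 10.53 with oligo 2, 10.85, 11.02 and 10.69 with sirEGFP, and 10.80, 11.08 and 11.04 in Mock. The oligo 1 arrays and oligo 2 array 3 were below every control array, and the other oligo 2 arrays were not. Ebp, which encodes the sterol isomerase that shifts the ring double bond, stood at 7.33, 7.14 and 7.14 with oligo 1, 7.31, 7.13 and 6.77 with oligo 2, 7.60, 7.43 and 7.27 with sirEGFP, and 7.52, 7.90 and 7.56 in Mock, where only sirEGFP array 3 overlapped the UBF siRNAs. With both oligos against both controls Nsdhl fell by 0.34 ± 0.09 on the log2 scale (limma adjusted p = 0.0415) and Ebp by 0.41 ± 0.11 (adjusted p = 0.043). Nsdhl also fell with oligo 1 against Mock (-0.51, adjusted p = 0.0467) and Ebp with oligo 2 against Mock (-0.59, adjusted p = 0.0444). Single arrays ended these calls: both lost the call against both controls without 9 arrays, Nsdhl without all but Mock 1, sirEGFP 3 and oligo 1 array 1 (0.0542 to 0.117) and Ebp without all but sirEGFP 3, oligo 1 array 1 and oligo 2 array 1 (0.0565 to 0.109), while the calls against Mock were lost without 11 arrays for Nsdhl, all but sirEGFP 3 (0.0513 to 0.174), and without 7 for Ebp, the 3 Mock arrays, sirEGFP 2, oligo 1 array 3 and oligo 2 arrays 2 and 3 (0.0642 to 0.212). Without the 3 arrays that stand apart Ebp kept its oligo 2 call (0.0365), and the other calls were lost (0.158 and 0.373 for Nsdhl, 0.134 for Ebp).

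The other 3 enzymes did not pass any test in the fit over genes. Sc5d, which encodes the sterol C5 desaturase, ranged from 9.53 to 9.85 with the UBF siRNAs and from 9.79 to 10.10 in the controls, at -0.24 for both oligos against both controls (adjusted p = 0.121). Dhcr7, the last reductase of one route to cholesterol, ranged from 6.25 to 6.55 and from 6.12 to 6.65, at -0.07 (adjusted p = 0.809). Tm7sf2, a sterol C14 reductase, ranged from 5.61 to 6.23 and from 5.74 to 6.19, at -0.09 (adjusted p = 0.818).

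Stard4 encodes a soluble carrier that moves cholesterol between membranes and is a known SREBP target. It stood at 7.55, 7.73 and 7.66 with oligo 1, 7.87, 7.74 and 7.69 with oligo 2, 8.23, 8.45 and 8.29 with sirEGFP, and 8.22, 8.16 and 8.12 in Mock. The groups were tight, with a pooled SD of 0.09, and the UBF siRNAs did not overlap the controls. Against sirEGFP Stard4 fell with oligo 1 (-0.68 ± 0.11, limma adjusted p = 0.00444) and with oligo 2 (-0.56 ± 0.11, adjusted p = 0.0138), and it fell by 31.2% with both oligos against both controls (adjusted p = 0.0012). Against Mock it fell with oligo 1 (-0.52 ± 0.11, adjusted p = 0.0176) and was -0.40 with oligo 2 (adjusted p = 0.055). The oligo 2 call against sirEGFP was lost without sirEGFP 2, sirEGFP 3 or oligo 2 arrays 2 or 3 (0.0514 to 0.0872) and kept without the 3 arrays that stand apart (0.0141), as was that of both oligos against both controls (0.00855). The oligo 1 call against sirEGFP was kept without each single array (at most 0.0352), that against Mock was lost without 4 of them, Mock 1, Mock 2 and oligo 1 arrays 1 and 3 (0.0591 to 0.0784), and both were lost without the 3 arrays that stand apart (0.0571 and 0.211).

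**Figure D4:**
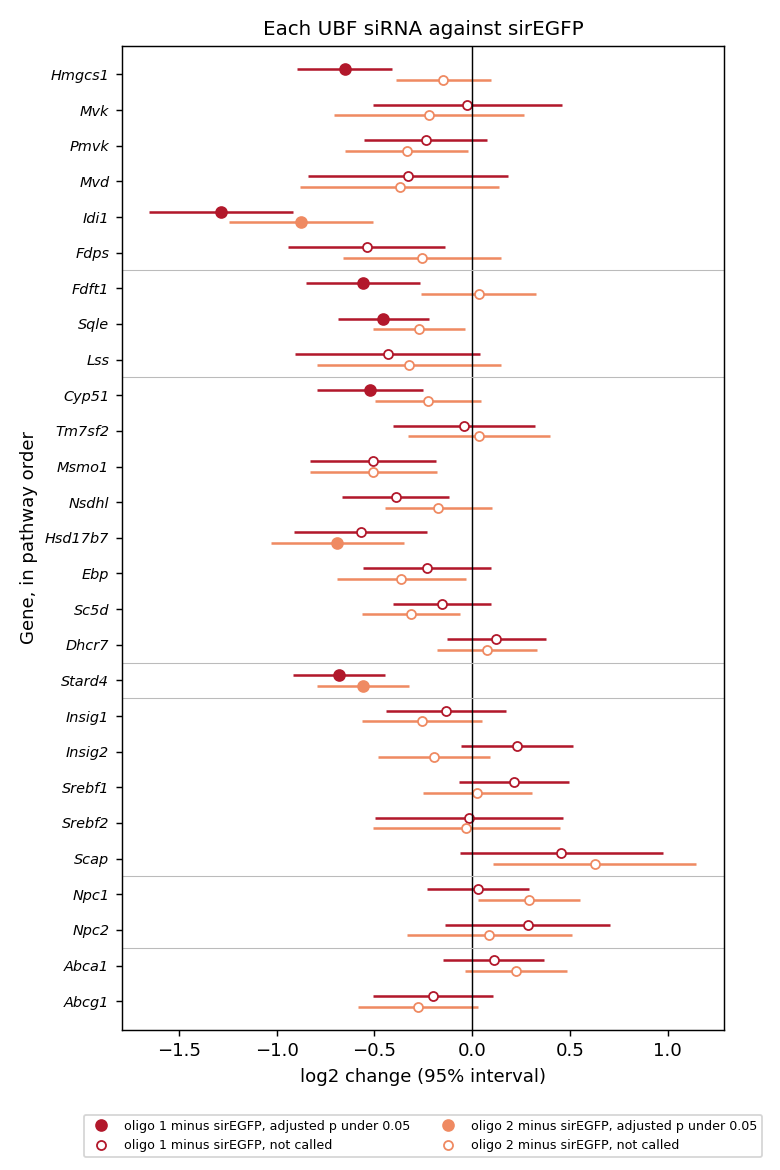
Log2 change of each of the 27 measured genes in pathway order, with 95% intervals of the limma fit, for oligo 1 and oligo 2 against sirEGFP; filled points passed the test. Idi1 has the largest change with either siRNA (-1.28 and -0.88); Hmgcs1 and Fdft1 are lower with oligo 1 (-0.65 and -0.56) than with oligo 2 (-0.15 and 0.03).

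Among the genes of SREBP control, Insig1, itself a target of SREBP, fell with both oligos against both controls but did not pass against sirEGFP alone. The others did not pass the test in the fit over genes. Insig1 stood at 11.04, 10.47 and 10.70 with oligo 1, 10.67, 10.59 and 10.58 with oligo 2, 10.85, 11.03 and 10.74 with sirEGFP, and 11.25, 11.39 and 11.10 in Mock. All arrays of the UBF siRNAs were below Mock, while sirEGFP lay among the oligo 1 arrays. Between the controls, sirEGFP stood at -0.38 against Mock (limma adjusted p = 0.758). Insig1 fell with both oligos against both controls (-0.38 ± 0.10, limma adjusted p = 0.0421) and with oligo 2 against Mock (-0.63 ± 0.14, adjusted p = 0.0225), and was -0.13 with oligo 1 and -0.26 with oligo 2 against sirEGFP (adjusted p = 0.799 and 0.508). The first call was kept only without Mock 3 or oligo 1 array 1 among single arrays (otherwise 0.0528 to 0.117) and lost without the 3 arrays that stand apart (0.0569). The second was lost without Mock 1, Mock 2 or any oligo 2 array (0.0547 to 0.105) and kept without those 3 arrays (0.00891).

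The SREBP genes themselves and Insig2 did not pass the test. Srebf2, which encodes the form most active on the sterol pathway, ranged from 6.64 to 7.63 with the UBF siRNAs and from 6.72 to 7.57 in the controls, at -0.16 ± 0.16 for both oligos against both controls (limma adjusted p = 0.738). Srebf1 ranged from 6.25 to 6.79 and from 6.18 to 6.48, at 0.07 (adjusted p = 0.816). Insig2 ranged from 8.28 to 8.98 and from 8.36 to 8.82, at 0.08 (adjusted p = 0.81).

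Scap, the escort, was the member with the widest spread within groups, a pooled SD of 0.37. It stood at 8.77, 7.72 and 8.19 with oligo 1, 8.60, 8.36 and 8.24 with oligo 2, 8.26, 7.57 and 7.49 with sirEGFP, and 8.28, 8.06 and 7.74 in Mock. Its difference was 0.41 ± 0.17 for both oligos against both controls (limma adjusted p = 0.233) and 0.63 ± 0.24 for oligo 2 against sirEGFP (adjusted p = 0.261). Without the 3 arrays that stand apart, which leaves 1 oligo 1 array, these differences were 0.52 and 0.87. Scap itself followed the axis that set those arrays apart (r = 0.94 within groups). With Scap counted, 7 of the 27 genes and 16.4% of all genes did so, at an r above 0.8 in either direction. The part of this axis in the Scap differences was not tested.

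Npc1 and Npc2 release cholesterol from lysosomes. Npc1 stood at 7.92, 7.76 and 7.75 with oligo 1, 8.12, 7.97 and 8.13 with oligo 2, 7.95, 7.60 and 7.80 with sirEGFP, and 7.61, 7.43 and 7.67 in Mock. The oligo 2 arrays were the highest, and all UBF arrays were above Mock. Npc1 rose with oligo 2 against Mock (0.50 ± 0.12, limma adjusted p = 0.0317) and was 0.29 against sirEGFP (adjusted p = 0.311). That call was lost without Mock 1, Mock 2 or any oligo 2 array (0.0581 to 0.142) and with each array centred on its median (0.0515), and kept without the 3 arrays that stand apart (0.0239).

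Npc2 ranged from 9.74 to 10.60 with the UBF siRNAs and from 9.77 to 10.24 in the controls, at 0.11 (adjusted p = 0.818). The efflux pumps Abca1 and Abcg1 are targets of the sterol receptor LXR. Abca1 ranged from 5.07 to 5.30 and from 4.82 to 5.20, at 0.19 (adjusted p = 0.286), and Abcg1 from 5.35 to 5.67 and from 5.28 to 5.84, at -0.13 (adjusted p = 0.625).

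The siRNAs were also set directly against each other. With oligo 2 against oligo 1, 2 of the 27 genes were higher (2.3% of all genes) and 0 lower (1.37%). Hmgcs1 was 0.50 ± 0.11 higher on the log2 scale with oligo 2 than with oligo 1 (95% interval 0.26 to 0.75, limma adjusted p = 0.0216) and Fdft1 0.59 ± 0.14 higher (0.30 to 0.88, adjusted p = 0.0247). For Idi1 the difference was 0.41 (0.04 to 0.78, adjusted p = 0.273), for Stard4 0.12 (-0.11 to 0.36) and for Hsd17b7 -0.12 (-0.46 to 0.22), none of which passed. The Hmgcs1 call was lost without oligo 1 array 1 or any oligo 2 array (0.053 to 0.107), the Fdft1 call without oligo 1 arrays 2 or 3 or any oligo 2 array (0.0508 to 0.105), and both without the 3 arrays that stand apart (0.425 and 0.353). Fitting all probe sets ended the Fdft1 call (0.0694), and fitting only these 2 groups ended both (0.0702 to 0.0895). With the replicate number as a block, 3 members were higher with oligo 2 (3.36% of all genes) and 0 lower (2.13%), the addition being Idi1 (adjusted p = 0.0378). The proliferation markers, low on the oligo 1 arrays only, differed between the siRNAs in the same direction, with 2 of 9 higher, 0 lower and a median of 0.49 for oligo 2 against oligo 1, and their part in these differences was not tested.

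Genes of neighbouring pathways were listed by role. In the mean of both oligos against sirEGFP, limma called 0 of 18 genes of the fatty acid arm of the SREBP targets, 0 of 15 measured genes of the isoprenoid branches, 0 of 9 measured genes of SREBP processing and 0 of 22 measured genes of sterol transport, storage and LXR response. At an unadjusted p under 0.05 there were 2, 1, 0 and 7 of them, where 13.2% of all genes passed that mark, and the medians of the lists were 0.08, 0.04, 0.10 and 0.08, with 0.01 for all genes. In the fatty acid arm, the smallest p-values belonged to Lpin1, a phosphatidate phosphatase (0.46, adjusted p = 0.0886), Elovl6, a fatty acid elongase (-0.38, adjusted p = 0.104), and Fads2, a fatty acid desaturase (0.32, adjusted p = 0.597). In the isoprenoid branches these were Dolk, dolichol kinase (0.21, 0.356), Pdss2, of ubiquinone synthesis (-0.19, 0.523), and Rabggtb, of Rab prenylation (-0.14, 0.586).

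With both oligos against both controls, 1 of the 18 genes of the fatty acid arm fell, Elovl6, and 1 rose, Lpin1, beside 1.87% of all genes that fell and 3.05% that rose. Elovl6 stood at 10.34, 10.20 and 10.20 with oligo 1, 10.11, 10.32 and 10.21 with oligo 2, 10.53, 10.81 and 10.49 with sirEGFP, and 10.69, 11.04 and 10.90 in Mock. Every array of the UBF siRNAs was below every control array, and Elovl6 fell by 0.51 ± 0.09 on the log2 scale (limma adjusted p = 0.0041), a call kept without each array in turn (at most 0.0152) and without the 3 arrays that stand apart (0.0181). Lpin1 rose by 0.41 in the same comparison (adjusted p = 0.0333), lost without 9 of the 12 single arrays, all but Mock 3, sirEGFP 1 and oligo 1 array 2 (0.0574 to 0.0905).

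In SREBP processing, the smallest p-values of the mean of both oligos against sirEGFP belonged to Mbtps1, the first of the proteases that cut SREBP (0.38, limma adjusted p = 0.495), Ufd1 (0.19, 0.508) and Vcp (0.18, 0.656), which act in degradation at the endoplasmic reticulum. Among genes of sterol transport and storage they belonged to Scarb2, a lysosomal membrane protein (0.55, 0.0628), Lbr, a nuclear membrane protein with sterol C14 reductase activity (-0.34, 0.115), and Nceh1, a cholesteryl ester hydrolase (0.58, 0.168). With both oligos against both controls, 2 of the 22 genes rose (3.05% of all genes) and 1 fell (1.87%): Scarb2 rose by 0.55 (adjusted p = 0.0133), Lipa, the lysosomal acid lipase, rose by 0.36 (adjusted p = 0.0153) and Lbr fell by 0.33 (adjusted p = 0.0284). Lipa was named after its values were seen. Without the 3 arrays that stand apart none of these calls held (0.0711, 0.0612 and 0.156), and that of Lbr was also lost without any of 6 single arrays, Mock 2, sirEGFP 2, sirEGFP 3, oligo 1 array 3 and oligo 2 arrays 2 and 3 (0.0533 to 0.0731).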

How the data were processed

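The authors deposited log2 expression values for 35512 probe sets on 12 arrays, a scale inferred from the numbers. How they were summarised and normalized is not given in the sources used here, beyond limma in the submitters' processing notes. With array medians of 5.38 to 5.54, no further normalization was applied. Precision is limited by the number of arrays, and signal over background could not be judged.

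Of the probe sets, 21789 carried 1 symbol in the platform annotation, 1621 several and 12102 none. Symbols were updated by Entrez identifier through RefSeq gene names (GRCm38.p6), which matched 21698 probe sets. Where a gene had more than 1 probe set (999 genes), the one of highest mean was used, leaving 19938 genes.

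All genes were fitted by lmFit and eBayes of limma 3.58.1 (R 4.3.3), in two-sided tests, with 4 group coefficients and 8 residual degrees of freedom. Benjamini-Hochberg adjustment ran over all 19938 genes, and calls were made at an adjusted p below 0.05. Log2 changes compare group means. The scripts were tested on simulated data. The design text calls the replicates biological, and p-values measure the spread between these arrays. Same-numbered arrays deviated together in every pair of oligo 2 with sirEGFP (r of 0.182 to 0.548 over genes) and of oligo 2 with oligo 1 (0.115 to 0.388). The replicate block is therefore given beside these 2 comparisons. Some pairs of unlike number did so too: oligo 2 array 2 with sirEGFP 3 (0.285), and oligo 1 arrays 2 and 3 with oligo 2 arrays 3 and 1 (0.175 and 0.121). The other pairs of unlike number in these groups were at 0.006 or below. The numbers were thus not shown to pair the arrays here.

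Genes were members by name, and the members, lists and markers were chosen with earlier results of these data known. Values on every array are given for members called in at least 1 comparison of a UBF siRNA with a control and for Scap, and ranges for the others. From each neighbouring list the text takes the members called in the mean of both siRNAs against sirEGFP, and up to 3 with the smallest p there. Elovl6, Lpin1 and Lbr fall under this rule, while Lipa, Osbpl9 and the per-array values of Scap were chosen after their values were seen. Alternatives varied the normalization, filter, probe sets, arrays, weights, variance prior and replicate block.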

Additional observations from a re-analysis of the deposited data

Results flagged for a closer look

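The 2 UBF siRNAs differed in 2 genes of the pathway by the direct test of oligo 2 against oligo 1. Hmgcs1 was 0.50 higher on the log2 scale with oligo 2 (limma adjusted p = 0.0216), with 10.31, 10.10 and 10.07 on the oligo 2 arrays and 9.56, 9.63 and 9.78 on the oligo 1 arrays. Fdft1 was 0.59 higher with oligo 2 (limma adjusted p = 0.0247), with 10.42, 10.34 and 10.19 on the oligo 2 arrays and 9.84, 9.49 and 9.85 on the oligo 1 arrays. In both genes every oligo 2 array was above every oligo 1 array. Both genes were picked by the direct test on these same arrays, so this separation adds no support of its own. The share of all genes with this arrangement was not computed. Both calls were lost when only the groups compared were fitted (limma adjusted p = 0.0702 to 0.0895), and each was lost without some single arrays. A second probe set of Fdft1 gave 0.65 in the same direction in a fit over all probe sets, where neither it (adjusted p = 0.156) nor the probe set used here (0.0694) passed.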

How the results depend on the processing

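No called member changed sign under any alternative, and the medians of the 27 genes, followed in the 3 comparisons with sirEGFP and in that of both oligos with both controls, moved by less than the spread between arrays; repeating each called member under each alternative kept the call 802 times and lost it 243 times. The depth is not defined for arrays, and these values allow no statement on signal over background. Fitting all probe sets called 3 members for oligo 1 against sirEGFP, 1 for oligo 2, 8 for both oligos against both controls, 7 for oligo 1 and 2 for oligo 2 against Mock and 1 for oligo 2 against oligo 1, with 244, 279 and 163 probe sets in all for oligo 1, oligo 2 and their mean against sirEGFP; more features were adjusted over. Fitting only the groups compared, with fewer arrays for the spread, called 1, 6 and 0 members for oligo 1 against sirEGFP, oligo 1 against Mock and oligo 2 against oligo 1, and 101, 236 and 380 genes for oligo 1 and the mean against sirEGFP and for oligo 2 against oligo 1. Array weights, which gave oligo 1 array 3 a weight of 8.92 against 0.442 and 0.416 for the other oligo 1 arrays, called 11, 5, 9 and 5 members for oligo 1, oligo 2 and the mean against sirEGFP and oligo 2 against oligo 1, and 3814, 1180, 1949, 2778, 2 and 3164 genes for these 3, both oligos against both controls, sirEGFP against Mock and oligo 2 against oligo 1. Without the 3 arrays that stand apart there were 1, 5 and 7 members for oligo 1 and oligo 2 against sirEGFP and both against both controls, 1 and 0 for oligo 1 against Mock and oligo 2 against oligo 1, and 255, 1049, 793 and 211 genes for oligo 1, oligo 2 and the mean against sirEGFP and oligo 2 against oligo 1. For the mean against sirEGFP, leaving out genes under the median or an intensity trend each called 6 members. Some counts of members in this paragraph stand without a count over all features. Those counts are not read as a result on the members.

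Across the other pairs of groups the replicate numbers were not shown to pair the arrays either. There, 2 of 3 same-numbered pairs correlated above 0.1 for oligo 1 with sirEGFP and for oligo 2 with Mock. For oligo 1 with Mock and for sirEGFP with Mock it was 1 of 3. Over all pairs of groups 12 of 18 did (range -0.237 to 0.551). The median was 0.169 for same-numbered and -0.129 for other pairs, and 9 of 12 arrays correlated best with their own number. With the replicate block, 5 and 7 members were called for oligo 2 and the mean against sirEGFP, and 878, 773, 789, 1530 and 3 genes for oligo 1, oligo 2, the mean, both oligos against both controls and sirEGFP against Mock; the block ended no member's call. In the mean it added Hmgcs1 (0.0428), Sqle (0.046), Msmo1 (0.0099) and Scap (0.0404), and it added Msmo1 with oligo 1 against sirEGFP (0.0184), Scap and Npc1 with both oligos against both controls (0.0349 and 0.0457) and Mvk, Lss and Stard4 with oligo 2 against Mock (0.0215, 0.0177 and 0.045).

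Leaving out single arrays gave 2 to 5 members for oligo 1 against sirEGFP, 0 to 3 for oligo 2, 2 to 4 for the mean, 8 to 13 for both against both controls, 3 to 11 and 2 to 10 for oligo 1 and oligo 2 against Mock and 0 to 2 for oligo 2 against oligo 1. Over all genes the ranges were 155 to 863, 198 to 627, 108 to 722 and 591 to 1399 for the first 4, 0 to 1 for sirEGFP against Mock and 328 to 833 for oligo 2 against oligo 1.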

Other observations

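In the list of sterol transport and storage, 1 of the 22 measured genes was higher with oligo 2 than with oligo 1 (2.3% of all genes) and 1 was lower (1.37%). Lbr, the nuclear membrane protein with sterol C14 reductase activity, stood at 8.53, 8.32 and 8.51 with oligo 2 and at 7.65, 7.51 and 7.68 with oligo 1, with sirEGFP between 8.34 and 8.39 and Mock between 8.24 and 8.53. It was 0.84 higher with oligo 2 than with oligo 1 (limma adjusted p = 0.00102). Osbpl9, which encodes an oxysterol-binding protein relative and was named after its values were seen, stood at 10.19, 10.08 and 10.09 with oligo 2 and at 11.21, 10.93 and 11.13 with oligo 1, with sirEGFP between 10.75 and 11.06 and Mock between 10.54 and 10.81. Its change was -0.97 for oligo 2 against oligo 1 (adjusted p = 0.00077). Both differences kept their call without each array in turn (at most 0.00797 for Lbr and 0.00638 for Osbpl9) and without the 3 arrays that stand apart (0.0483 and 0.0213).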
